A study of Mus musculus with 12 samples.

Results

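The genes described here are the splicing factor genes whose human counterparts are mutated in retinitis pigmentosa, an inherited loss of photoreceptors. They are Prpf3, Prpf4, Prpf6, Prpf8, Prpf31, Snrnp200, Rp9, Cwc27 and Dhx38. They were chosen by symbol, and all 9 were found among the 53707 gene identifiers of the deposited gene table and passed the filter on low counts. RNA was measured in whole retinas of wild-type C57BL/6J mice at 28 days of age, cultured as explants for 48 hours in medium with 5 mM or 25 mM glucose. The pigment epithelium had been removed during dissection, and each library was made from total RNA with a stranded low-input kit. Each glucose level had 3 biological replicates, and each of these was sequenced as 2 technical replicates, 1 in each of 2 labelled batches, which makes 12 libraries. The labels do not say whether a biological replicate was 1 retina, 1 mouse or a pool, so the p-values given here measure the spread between these samples. The study asked whether glucose supply and lactate-linked histone marks go with retinal gene expression, and the question here is whether the message levels or transcript forms of these splicing factors differed between the glucose levels.

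The spliceosome removes introns from pre-mRNA and is assembled anew on each intron from small nuclear ribonucleoproteins, or snRNPs. The U4/U6.U5 tri-snRNP joins the intron last, and its unwinding releases U4 and lets the catalytic core form. Most of these genes encode proteins of that particle or factors that act on it. They are used by every nucleated cell, yet inherited mutations in several of them are known chiefly for their effect on rods. Prpf8 is the large protein that holds the catalytic core of U5. Snrnp200 is the helicase that unwinds U4 from U6, and Prpf6 bridges U5 to U4/U6. Prpf31, Prpf3 and Prpf4 bind the U4/U6 pair. Rp9 encodes a small protein that binds Prpf3. Cwc27 is a cyclophilin-like protein of the activated spliceosome, and Dhx38 is the helicase that remodels the spliceosome between the catalytic steps.

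None of these genes changed in message level past the threshold. With edgeR's quasi-likelihood test on the summed technical replicates, 0 of 9 were called at a false discovery rate (FDR, Benjamini-Hochberg over all genes) under 0.05, where 1.98% of the 21061 genes tested were called. DESeq2, which called 3489 genes in all, and limma-voom, which called 418, also called 0 of 9. At the stricter rule of an FDR under 0.01 with a change of more than 2-fold, 0 of 9 were called, and so were 0.0% of all genes. At an unadjusted p under 0.05, 1 of 9 was counted against 28.7% of all genes, and it was Prpf3. Of the log2 fold changes of 25 mM over 5 mM glucose, 4 were above 0 and 5 below, with a median of -0.08. The median was -0.01 over all genes tested and -0.09 over the 8618 genes whose mean level lay in the range of these 9. The median size of the log2 fold change was 0.26 for the 9 genes and 0.45 for all genes tested. It was 0.31 over the genes in that range of levels. No member differed by more than 2-fold, where 9.71% of genes in that range of levels did.

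The libraries held 14815285 to 36692484 counts each, or 37944826 to 60098862 once the technical replicates were added together. Retinal markers were present in all samples, and none of the marker genes was at 0 in all of them. Rod markers were higher at 25 mM, with 13 of 13 log2 fold changes above 0 and 6 called. Their summed level was 3740 to 6803 CPM (counts per 1000000 counts) at 5 mM and 7686 to 10646 at 25 mM. Vascular markers summed to 1091 to 1848 CPM at 5 mM and 593 to 1000 at 25 mM, with 6 of 7 log2 fold changes below 0. Microglial markers summed to 59.6 to 120 CPM at 5 mM and 33.5 to 66.0 at 25 mM, with 6 of 6 below 0, and no gene of either list was called. Sums without overlap between the groups were also seen for cone, bipolar and amacrine markers. For cone markers they were 45.3 to 58.1 CPM at 5 mM and 70.7 to 87.4 at 25 mM. For bipolar markers they were 1232 to 1290 and 962 to 1124, and for amacrine markers 243 to 293 and 119 to 202. These lists were mixed, with 4 of 6 cone, 2 of 6 bipolar and 2 of 5 amacrine log2 fold changes above 0. Of their genes 1 cone marker was called, and the amacrine median was -0.01. Ganglion cell, Mueller glia and pigment epithelium sums overlapped. Several summed marker levels therefore differed between the glucose levels, and their part in the values below was not tested. In whole tissue, fewer cells of a type and less RNA per cell cannot be told apart. The first 5 mM replicate stood apart from the other replicates of its group. Without it, 5845 genes were called in place of 417, and without any other single replicate 0 to 494 were. Values without the first 5 mM replicate are therefore given where it moved a result.

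Levels can be compared between genes only per length, so transcript counts were divided by annotated transcript length and expressed as TPM (transcripts per 1000000). On that scale Prpf8 and Snrnp200 of U5 were the most abundant at 5 mM. Mean TPM at 5 mM was 94.8 ± 23.3 for Prpf8 and 79.8 ± 7.19 for Snrnp200, followed by 66.9 ± 2.98 for Prpf3 (SD, n = 3 for each gene and group). Prpf31 stood at 55.7 ± 10.8, Prpf6 at 50.7 ± 8.28, Rp9 at 39.6 ± 7.62 and Cwc27 at 36.8 ± 4.80. Prpf4 at 19.0 ± 1.84 and Dhx38 at 14.2 ± 5.68 were the least abundant. At 25 mM, Prpf3 came first at 91.9 ± 6.98, beside 84.7 ± 9.19 for Snrnp200 and 83.4 ± 14.8 for Prpf8. The other means at 25 mM were 61.0 ± 9.00 for Prpf31, 47.7 ± 3.89 for Cwc27, 45.7 ± 5.49 for Prpf6, 36.2 ± 6.95 for Rp9, 19.5 ± 2.98 for Prpf4 and 11.0 ± 2.26 for Dhx38. These values sum all annotated transcripts of a gene, and short non-coding ones weigh more per base than per count. Non-coding transcripts held a mean of 30.3% of Prpf3 counts at 5 mM and 37.9% at 25 mM, beside 0.12% and 0.11% for Prpf8. The order is thus not one of coding message alone.

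Most neighbours in this order overlapped in their spread. Prpf8 exceeded Snrnp200 in 3 of 6 replicates, Snrnp200 exceeded Prpf3 in 4 of 6, Prpf3 exceeded Prpf31 in 5 of 6, and Rp9 exceeded Cwc27 in 2 of 6. Prpf31 over Prpf6, Prpf6 over Rp9 and Prpf4 over Dhx38 held within each of the 6 replicates, although their ranges over all replicates overlapped. The step from Cwc27 to Prpf4 was the only one between neighbours without overlap, with a lowest Cwc27 value of 32.6 TPM and a highest Prpf4 value of 22.8 TPM.

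**Figure D1:**
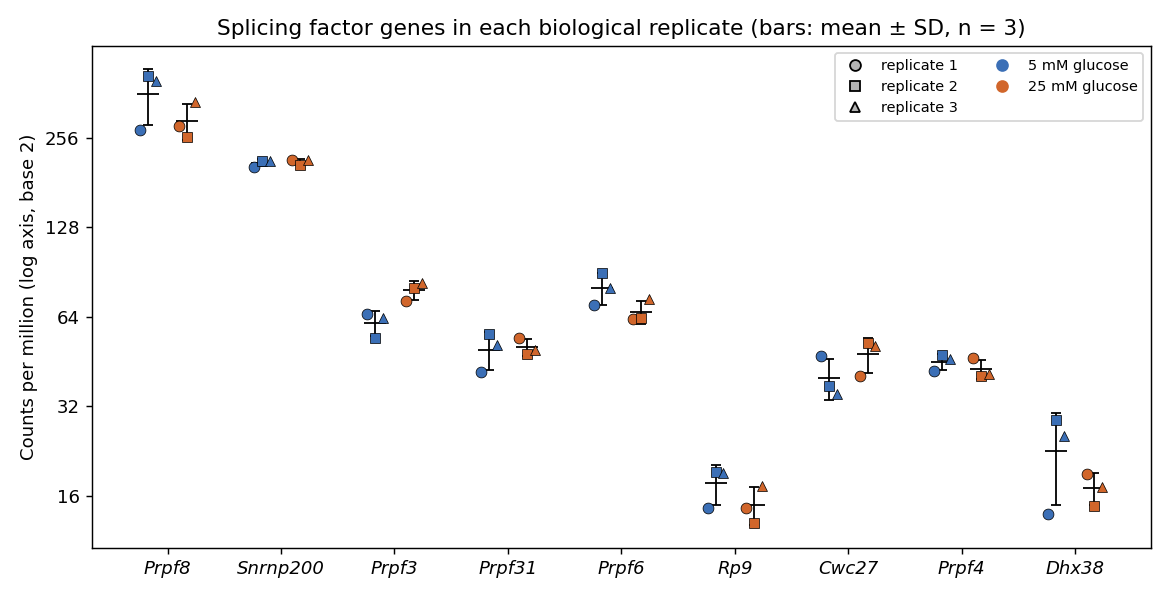
Level of each splicing factor gene in CPM (log axis, base 2) in the 3 biological replicates at 5 mM (blue) and 25 mM (orange) glucose, ordered by TPM at 5 mM, with bars for the mean and SD. Prpf3 is the only gene whose orange and blue points do not overlap, and the first 5 mM replicate (blue circle) lies at or near the orange points for Prpf8, Prpf6, Rp9 and Dhx38.

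Among the U5 proteins, the deposited gene value of Snrnp200 hardly varied and that of Prpf8 varied widely. Snrnp200 (ENSMUSG00000003660, chr2:127208386-127240451, plus strand, GRCm38) measured 205, 214 and 214 CPM in the 5 mM replicates and 215, 207 and 215 CPM in the 25 mM replicates. The groups overlapped and the coefficient of variation over all 6 replicates was 2.12%, the smallest among the 9 genes. This steadiness was a property of the deposited gene value, since its TPM ran from 71.9 to 92.2 and its main transcript Snrnp200-201 from 167 to 252 CPM. Technical replicates of Snrnp200 differed by a median of 0.08 on the log2 scale. The pooled SD of its biological replicates was 0.03 on that scale, so their spread lay within the technical difference. Its log2 fold change was 0.01 with a standard error of 0.14 and a 95% interval of -0.32 to 0.34 (edgeR FDR 0.967), so a change beyond 1.27-fold either way lay outside the interval. Prpf8 (ENSMUSG00000020850, chr11:75486816-75509449, plus strand) measured 271, 412 and 396 CPM at 5 mM and 281, 257 and 337 CPM at 25 mM. The second and the third 5 mM replicate were the highest and the first lay among the 25 mM values. Its log2 fold change was -0.30 with a standard error of 0.21 (edgeR FDR 0.366), and without the first 5 mM replicate it was -0.47 (edgeR FDR 0.0674). Within batch 1 that value was -0.59 and within batch 2 it was -0.04, and technical replicates of Prpf8 differed by a median of 0.41 on the log2 scale, more than for any other member. Prpf6 (ENSMUSG00000002455, chr2:181591868-181655660, plus strand) measured 70.1, 89.7 and 80.0 CPM at 5 mM and 62.9, 63.7 and 73.4 CPM at 25 mM. The overlap lay between the first 5 mM and the third 25 mM replicate. The log2 fold change was -0.26 with a standard error of 0.17 (edgeR FDR 0.318), and -0.35 without the first 5 mM replicate (edgeR FDR 0.121).

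Of the U4/U6 proteins, Prpf3 had the largest positive difference. Prpf3 (ENSMUSG00000015748, chr3:95830124-95855885, minus strand) measured 65.2, 54.5 and 63.6 CPM at 5 mM and 72.6, 80.1 and 83.3 CPM at 25 mM. All 25 mM values lay above all 5 mM values, which was so for 1 of the 9 genes, where the groups of 31.8% of all genes tested did not overlap in either direction. The exact permutation test gave p = 0.1, two-sided, the smallest that 3 against 3 allows. The log2 fold change was 0.36 with a standard error of 0.16 and a 95% interval of 0.00 to 0.72, and the unadjusted p of 0.0476 became an edgeR FDR of 0.169. It was 0.31 within batch 1 and 0.42 within batch 2. When the fit took up offsets for GC content and transcript length, the value was 0.40 and its edgeR FDR 0.0494, and 2942 genes in all were called in that fit. Summing the deposited transcript values in place of the deposited gene value gave 0.25 (edgeR FDR 0.287). Without the second 5 mM replicate the log2 fold change of Prpf3 was 0.28 (edgeR FDR 0.449).

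Both other proteins of the U4/U6 pair had overlapping groups. Prpf4 (ENSMUSG00000066148, chr4:62408797-62426990, plus strand) measured 42.0, 47.5 and 46.3 CPM at 5 mM and 46.5, 40.6 and 41.1 CPM at 25 mM, with a log2 fold change of -0.08 and a 95% interval of -0.45 to 0.28 (edgeR FDR 0.744). Prpf31 (ENSMUSG00000008373, chr7:3629985-3642486, plus strand) measured 41.8, 55.8 and 51.3 CPM at 5 mM and 54.4, 48.1 and 49.7 CPM at 25 mM. Its log2 fold change was 0.03 with a 95% interval of -0.36 to 0.43 (edgeR FDR 0.921). Exons of Prpf31 overlap those of Gm15927 on the opposite strand. The kit marks strand, but whether the counting used it is not given in the sources used here.

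Rp9, Cwc27 and Dhx38 also overlapped between the groups. Rp9 (ENSMUSG00000032239, chr9:22411047-22469743, minus strand) measured 14.6, 19.2 and 19.1 CPM at 5 mM and 14.6, 13.0 and 17.3 CPM at 25 mM, with a log2 fold change of -0.24 and a standard error of 0.22 (edgeR FDR 0.495). Cwc27 (ENSMUSG00000021715, chr13:104631140-104817142, minus strand) measured 47.2, 37.4 and 35.3 CPM at 5 mM and 40.4, 52.4 and 51.0 CPM at 25 mM, with a log2 fold change of 0.26 and a standard error of 0.19 (edgeR FDR 0.382). Here too the first 5 mM replicate was nearer to the 25 mM values than the others of its group. Without it, the log2 fold change was 0.40 for Cwc27 (edgeR FDR 0.125) and -0.36 for Rp9 (edgeR FDR 0.216). Exons of Rp9 overlap those of 9530077C05Rik, and exons of Cwc27 those of Srek1ip1, both on the opposite strand.

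Dhx38 was the least settled of the 9. Dhx38 (ENSMUSG00000037993, chr8:109548011-109565861, minus strand) measured 14.0, 28.8 and 25.4 CPM at 5 mM and 19.0, 14.8 and 17.2 CPM at 25 mM. The first 5 mM replicate was the lowest of all 6, and the other two were the highest. The coefficient of variation over the replicates was 30.1%, the largest of the 9 genes, and the log2 fold change was -0.42 with a 95% interval of -1.07 to 0.24 (edgeR FDR 0.354). Without the first 5 mM replicate it was -0.67 with an edgeR FDR of 0.0389, in a fit that called 5845 genes in all. Without the second 5 mM replicate it was -0.22 with an edgeR FDR of 0.720. With offsets for GC content and transcript length it was 0.14 (edgeR FDR 0.528), so that its direction turned, and Dhx38 has the highest GC content of the 9 genes at 56.3%. Summing the deposited transcript values in place of the deposited gene value gave -0.80 (edgeR FDR 0.206). The deposited gene value of Dhx38 was 0.77 to 1.31 times the sum of its transcripts, depending on the replicate.

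**Figure D2:**
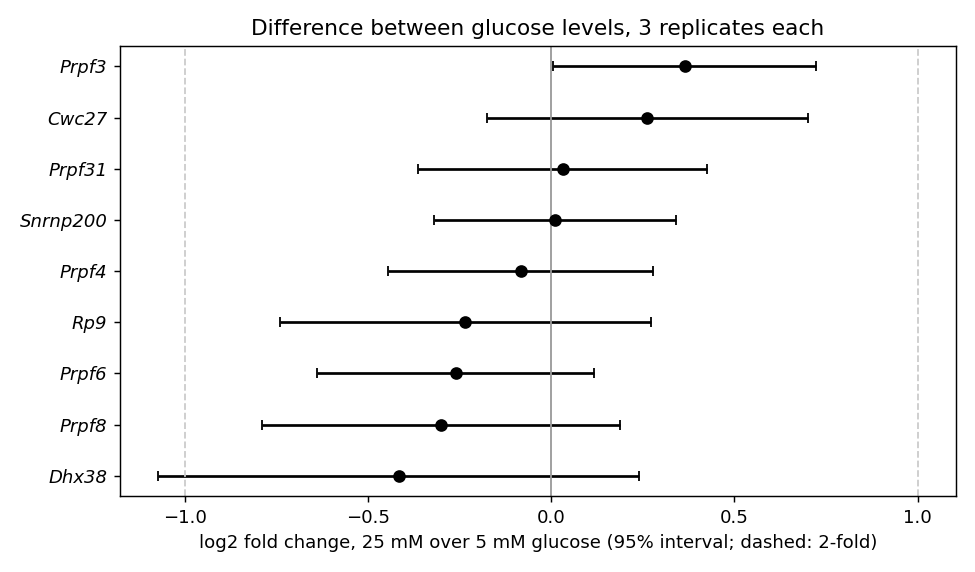
Log2 fold change of 25 mM over 5 mM glucose for each gene with its 95% interval (3 replicates per group). The interval of Dhx38, from -1.07 to 0.24, is the widest and reaches past the dashed line at a 2-fold decrease, and that of Prpf3 starts at 0.00.

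Across the 12 libraries, some of these genes moved together. Described by Pearson's r of log2 CPM, Prpf6 with Prpf8 gave 0.89, Prpf8 with Rp9 0.85 and Prpf6 with Rp9 0.79. Dhx38 with Cwc27 gave -0.76, Cwc27 with Prpf4 -0.72 and Dhx38 with Prpf3 -0.67. The 12 points include pairs of technical replicates and share library depth and composition, so these values carry no test. Of the other 21060 genes tested, those most like Prpf3 by this measure were ENSMUSG00000120877 at 0.95, Zfp784 at 0.92 and Mettl3 at 0.91. Their mean levels were 0.47, 10.1 and 61.1 CPM, so the first was near the floor. Those most like Dhx38 were Pink1 at 0.97, Cryl1 at 0.97 and Rabac1 at 0.96, with mean levels of 49.3, 3.59 and 15.5 CPM.

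Other genes of the spliceosome were read from a list of 74 set by role, and all of them were tested. By the same edgeR test, 0 of 74 were called, with 0 higher and 3 lower at an unadjusted p under 0.05, where 2784 of the 21061 genes tested were higher and 3268 lower. Their log2 fold changes were above 0 for 19 genes and below 0 for 55, with a median of -0.15. Of the 8618 genes in the members' range of levels, 4977 were below 0, with a median of -0.09. The Prp19 complex and the activated spliceosome, the company of Cwc27, had a median of -0.08 over 21 genes, from 0.52 for Prpf39 to -0.46 for Ppil1. The other spliceosomal helicases had -0.09 over 7, from 0.12 for Ddx42 to -0.73 for Ddx41. The other genes of the tri-snRNP had a median of -0.13 over 22, from 0.37 for Prpf18 to -0.73 for Lsm4, a subunit of the ring that binds the end of U6. The U2 snRNP, which recognises the branch point, had a median of -0.24 over 14 genes with 13 below 0, from 0.19 for Sf3b6 to -0.92 for Sf3b4. The U1 snRNP with the Sm core had -0.38 over 10 genes with 9 below 0, from 0.28 for Snrnp70 to -0.64 for Snrpd2. None of these genes passed the threshold.

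The 3 genes at an unadjusted p under 0.05 belonged to the U2 and Sm groups, and Sf3b2 and Snrpd3 are named for those values. Sf3b4 of the U2 snRNP measured 18.0, 28.7 and 25.9 CPM at 5 mM and 9.53, 12.7 and 16.1 CPM at 25 mM, a log2 fold change of -0.92 with an edgeR FDR of 0.0859. Sf3b2, its binding partner, had -0.50 with an edgeR FDR of 0.126, and Snrpd3 of the Sm core had -0.43 with an edgeR FDR of 0.140. None of these passed the threshold. The groups of each did not overlap, which was so for 4 higher and 7 lower genes of the 74, beside the 31.8% of all genes tested. Without the first 5 mM replicate, 17 of the 74 were called, 2 higher and 15 lower, in a fit that called 5845 genes in all. With GC and length offsets 5 were called, 1 higher and 4 lower, in a fit that called 2942.

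**Figure D3:**
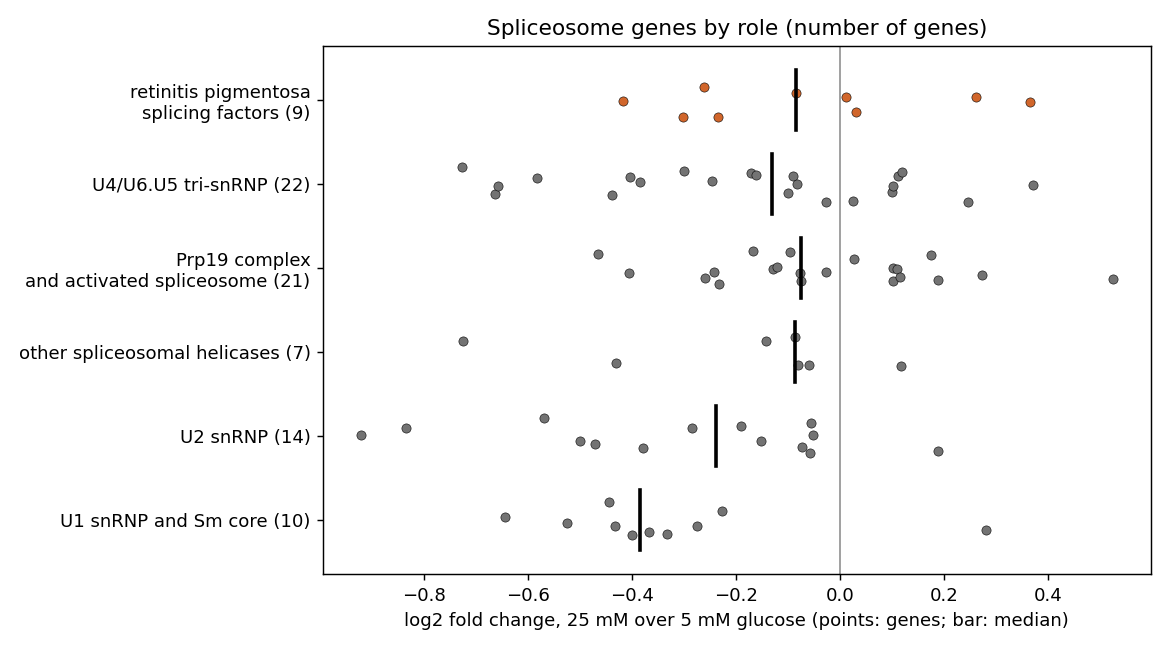
Log2 fold change of 25 mM over 5 mM glucose for the retinitis pigmentosa splicing factors (orange) and 74 other spliceosome genes (grey) by role, with a bar at each median. The medians run from -0.08 for the 9 genes and for the Prp19 group to -0.38 for the U1 snRNP and Sm core.

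The transcript rows held 41 annotated transcripts of these genes, and 34 were tested. The same edgeR test called 0 of them at an FDR under 0.05, where 0.0% of 64990 transcripts were called, and the lowest FDR of a member transcript was 0.230. At an unadjusted p under 0.05 it counted 4 of 34, against 16.4% of all transcripts tested. These 4 were Prpf3-205, Prpf3-206 and Rp9-202, which were higher at 25 mM, and Prpf6-201, which was lower. The first 3 are annotated as retained-intron transcripts, in which part of an intron is kept and no protein is annotated, and Prpf6-201 is the main coding transcript of its gene. Prpf3-205 was near the floor, at 0.15, 0 and 0 CPM at 5 mM and 0.48, 0.40 and 0.46 CPM at 25 mM. It passed the filter on low counts through its 25 mM values, which favours a positive log2 fold change, so its place in this count carries no weight. Transcript counts were less steady than gene counts, with a common biological coefficient of variation of 0.550 against 0.297.

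By annotated type the transcripts of these genes lay on opposite sides of 0. Of 18 tested transcripts annotated as retained intron, processed transcript or nonsense-mediated decay, 16 were higher than 0 on the log2 fold scale, and their median was 0.41. Of 16 tested protein-coding transcripts, 3 were higher than 0, and their median was -0.35. The same sides were seen over all transcripts tested, where 60.5% of the 26158 of those non-coding types were above 0, with a median of 0.18, and 36.5% of the 32114 coding ones, with a median of -0.24.

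**Figure D4:**
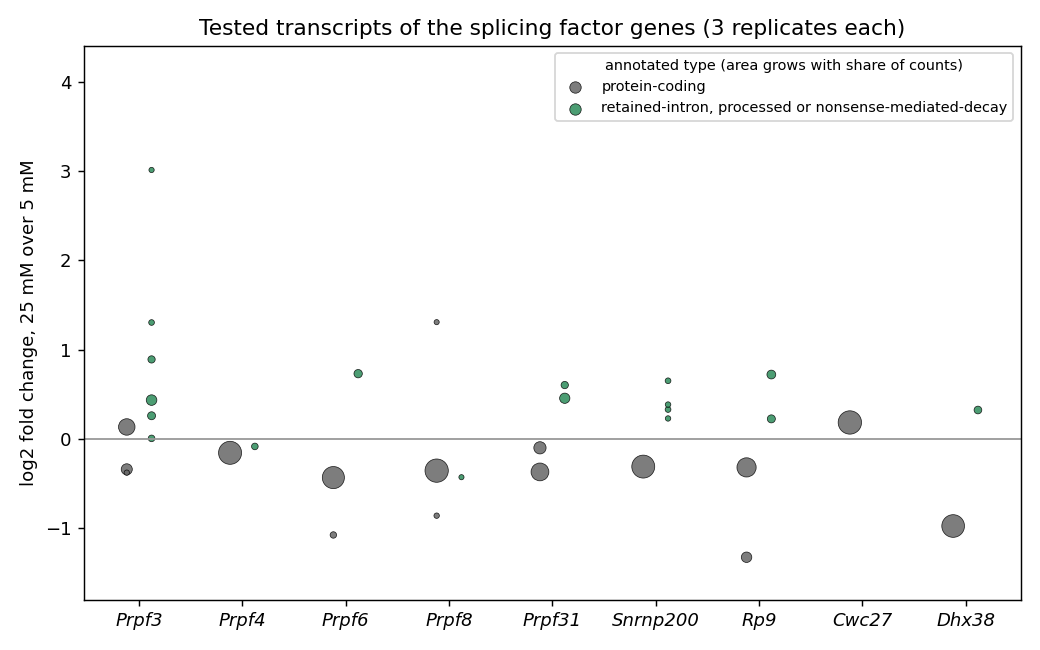
Log2 fold change of 25 mM over 5 mM glucose for the 34 tested transcripts by gene, with coding transcripts in grey and non-coding types in green, and point area growing with the share of the gene's counts. Of the green points 16 of 18 lie above 0, and of the grey points 3 of 16.

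The retained-intron transcripts were not all alike. The log2 fold change was -0.43 for Prpf8-204 (edgeR FDR 0.825), 0.22 for Rp9-205 (edgeR FDR 0.735) and 0.23 for Snrnp200-204 (edgeR FDR 0.783). Such transcripts differ from the messages by stretches of intron, and boundaries that some of them cross are printed here. Each was read from the GENCODE transcript sequences on GRCm38 for an intron of the gene's most counted coding transcript. Capitals mark 20 bases of coding exon, and the lower-case part is 40 bases of intron that splicing would remove. The intron starts with gt in 6 of these sequences, and in Prpf3-204 its end with ag is shown. Prpf3-204 covers 513 of the 2501 bases of intron 3, and the stretch shown is chr3:95849042-95849101. Prpf3-206 covers 381 of the 3436 bases of intron 8, shown at chr3:95844146-95844205. Prpf6-204 covers 711 of the 4756 bases of intron 12, shown at chr2:181640695-181640754. Prpf31-205 covers 516 of the 1762 bases of intron 2, shown at chr7:3630886-3630945. Rp9-205 covers 175 of the 3915 bases of intron 5, shown at chr9:22453739-22453798. Dhx38-202 covers 504 of the 1667 bases of intron 25, shown at chr8:109551523-109551582. Of the 13 tested retained-intron transcripts, only those of Snrnp200 hold an intron whole, and the others hold parts. The stretches shown for Prpf6, Prpf31 and Snrnp200 lie on the plus strand and the others on the minus strand.
Prpf3-204: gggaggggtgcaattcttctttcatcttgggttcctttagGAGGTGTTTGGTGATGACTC
Prpf3-206: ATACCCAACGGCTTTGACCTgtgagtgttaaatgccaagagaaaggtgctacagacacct
Prpf6-204: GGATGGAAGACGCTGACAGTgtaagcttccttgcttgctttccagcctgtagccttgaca
Prpf31-205: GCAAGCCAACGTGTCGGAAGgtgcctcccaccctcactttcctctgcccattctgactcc
Snrnp200-204: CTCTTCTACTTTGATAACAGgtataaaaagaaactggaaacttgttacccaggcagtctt
Rp9-205: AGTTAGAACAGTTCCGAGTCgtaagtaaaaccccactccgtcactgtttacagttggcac
Dhx38-202: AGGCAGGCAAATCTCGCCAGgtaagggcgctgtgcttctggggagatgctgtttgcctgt

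Snrnp200-204 holds intron 15 whole, all 192 bases of it, and its start is shown at chr2:127221919-127221978. Rp9-202 has no such boundary, since its 1 exon of 1358 bases lies within an intron of the coding transcript Rp9-204. The share of a tested retained-intron transcript that was intron ran from 2.36% for Prpf8-204 to the whole of Rp9-202. Libraries of total RNA also hold unspliced pre-mRNA, whose reads cannot be told apart from those of such transcripts in these tables.

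Among the retained-intron transcripts of Prpf3, the highest share was that of Prpf3-204, with 14.9% ± 0.76 of the gene's transcript counts at 5 mM and 18.3% ± 4.08 at 25 mM (SD, n = 3). It measured 10.2, 8.99 and 10.3 CPM at 5 mM and 14.6, 14.1 and 11.2 CPM at 25 mM. Its log2 fold change was 0.43 with a standard error of 0.22 (edgeR FDR 0.368). Prpf3-206 measured 0.68, 0.42 and 0.41 CPM at 5 mM and 1.05, 1.48 and 1.23 CPM at 25 mM, with a log2 fold change of 1.30 and a standard error of 0.39 (edgeR FDR 0.230). Its level is low, at 230 counts over all libraries. Of the coding transcripts of Prpf3, Prpf3-207 with 47.1% of the counts had a log2 fold change of 0.13 (edgeR FDR 0.793), and Prpf3-201 with 18.5% had -0.34 (edgeR FDR 0.563).

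For Prpf8 and Snrnp200, 1 coding transcript took nearly all counts. Prpf8-202 held 99.1% of the counts of its gene and had a log2 fold change of -0.36 (edgeR FDR 0.416). Snrnp200-201 held 95.8% and had -0.31 (edgeR FDR 0.423), beside 0.01 for the deposited gene value. The deposited gene value of Snrnp200 was 0.85 to 1.14 times the sum of its transcripts, and the log2 fold change of that sum was -0.19 (edgeR FDR 0.463). Over all genes with at least 200 counts in every library, 40.7% of the deposited gene values lay more than 5% from the transcript sum. Transcripts without a GENCODE match were left out of these sums, and 92.0% matched. The part of unmatched transcripts in this distance was not tested. Prpf6-201, with 88.6% of the counts of Prpf6, measured 66.2, 82.2 and 77.5 CPM at 5 mM and 52.8, 52.1 and 62.4 CPM at 25 mM. Its log2 fold change was -0.43 with a standard error of 0.17 (edgeR FDR 0.292).

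The remaining transcripts with at least 10% of their gene's counts lay mostly on the same sides. Prpf31-202 with 55.7% of its gene's counts had -0.37 (edgeR FDR 0.588), Prpf31-201 with 23.7% had -0.10 (edgeR FDR 0.829), and the retained-intron Prpf31-205 with 15.2% had 0.46 (edgeR FDR 0.457). Rp9-204 with 65.7% had -0.32 (edgeR FDR 0.503), and Rp9-201 with 16.0% had -1.33 (edgeR FDR 0.396). Prpf4-201 with 96.6% had -0.16 (edgeR FDR 0.629), and Dhx38-201 with 93.6% had -0.98 (edgeR FDR 0.332). Cwc27 differed, since its coding transcript Cwc27-201 held 99.5% of the counts with a log2 fold change of 0.18 (edgeR FDR 0.689).

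Transcript use, the division of a gene's counts among its transcripts, was tested for the 8 members with at least 2 tested transcripts. The edgeR test called 0 of 8 at an FDR under 0.05, where 1.19% of 12103 genes were called. At an unadjusted p under 0.05 it counted 2 of 8, against 12.9% of all genes, and these were Prpf3 (FDR 0.215) and Rp9 (FDR 0.359). On simulated data this test called unchanged genes more often than its threshold states. Without the first 5 mM replicate, 4 members were called, namely Prpf3, Snrnp200, Rp9 and Prpf31, in a fit that called 1851 genes.

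The share of counts in non-coding transcripts was then compared per replicate for the 8 members with at least 60 counts of each kind. Rp9 was the only one whose groups did not overlap. Its non-coding transcripts took 18.4%, 10.5% and 11.2% of its counts in the 5 mM replicates and 25.3%, 24.0% and 20.7% in the 25 mM replicates. The log2 ratio of non-coding over coding counts was higher by 1.02 at 25 mM, a ratio 2.03 times as high, and the exact permutation test gave p = 0.1, two-sided, the smallest that 3 against 3 allows. Among the members, 1 of 8 had groups that did not overlap with the 25 mM values higher, against 26.4% of the 9560 genes with enough counts.

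In Prpf6, Dhx38 and Snrnp200 the first 5 mM replicate lay among the 25 mM values. Prpf6 had 10.4%, 3.42% and 4.06% at 5 mM and 12.2%, 15.4% and 9.20% at 25 mM, a difference in the log2 ratio of 1.29. Dhx38 had 9.49%, 2.52% and 4.53% at 5 mM and 10.9%, 14.3% and 6.89% at 25 mM, a difference of 1.18. Snrnp200 had shares of 5.10%, 2.38% and 2.77% at 5 mM and 5.31%, 6.04% and 4.82% at 25 mM, a difference of 0.76. In all 3 genes the overlap lay between the first 5 mM replicate and the third 25 mM replicate. Without that 5 mM replicate the differences were 1.82, 1.71 and 1.10, and without the second 5 mM replicate they were 0.96, 0.70 and 0.53, for Prpf6, Dhx38 and Snrnp200 in turn.

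The U4/U6 proteins were less alike. Prpf31 had 25.5%, 13.8% and 12.6% at 5 mM and 25.1%, 32.2% and 19.5% at 25 mM, a difference in the log2 ratio of 0.76, or 1.15 without the first 5 mM replicate. Prpf3 had the largest shares, with 30.7%, 27.1% and 33.0% at 5 mM and 42.0%, 39.3% and 32.5% at 25 mM, and a difference of 0.49, with the overlap coming from replicate 3 of each group. Prpf4 had 2.70%, 4.63% and 2.80% at 5 mM and 4.10%, 3.27% and 3.17% at 25 mM, a difference of 0.10. Prpf8 had the smallest shares, at most 0.22% in any replicate, and a difference of -0.23. The exact permutation p of the genes other than Rp9 ran from 0.2 to 0.8, two-sided.

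**Figure D5:**
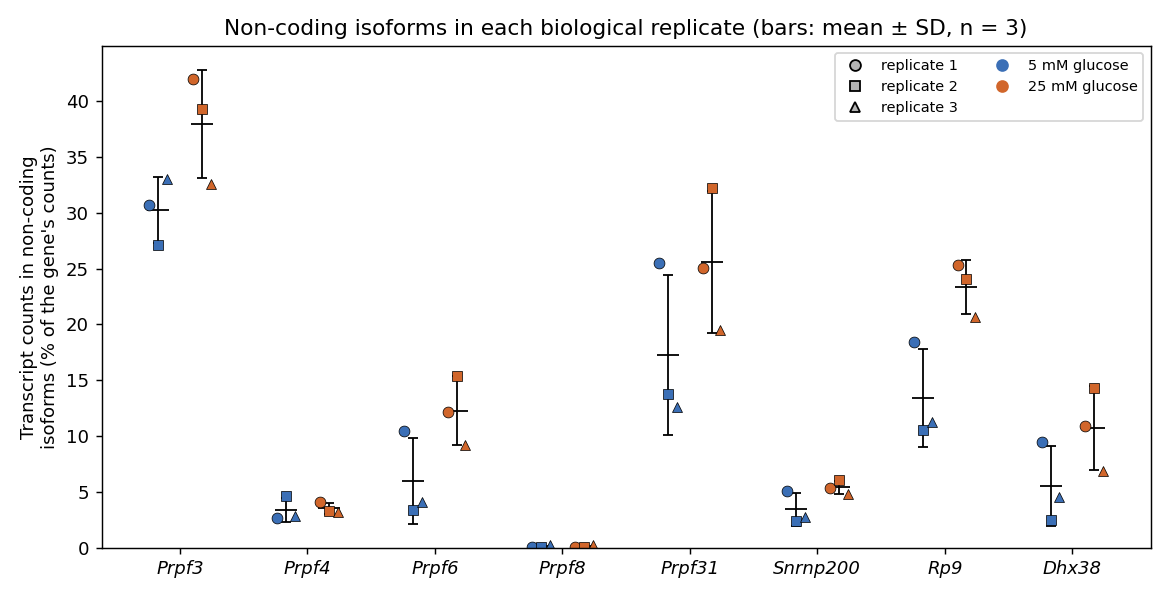
Percentage of each gene's transcript counts that fell on retained-intron, processed or nonsense-mediated-decay transcripts in the 3 biological replicates at 5 mM (blue) and 25 mM (orange) glucose, with bars for the mean and SD. The Rp9 groups are apart, at 10.5% to 18.4% and 20.7% to 25.3%, and in Prpf6, Prpf31, Snrnp200, Rp9 and Dhx38 the first 5 mM replicate (blue circle) lies above the other blue points.

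The difference in the log2 ratio was above 0 in 7 of 8 members, with a median of 0.76. It was above 0 in 63 of 69 other spliceosome genes with a median of 0.54, and in 77.7% of all 9560 genes with a median of 0.43, so a move in this direction was common in these samples. The median share over the members was 9.95% in the first 5 mM replicate and 4.02% and 4.30% in the others, against 11.5%, 14.9% and 8.04% at 25 mM. Over all genes, the median share was 13.9%, 12.3% and 12.6% at 5 mM and 16.3%, 17.3% and 15.8% at 25 mM. The first 5 mM replicate was therefore high in this measure among the members and, to a lesser degree, among all genes. Without it the median difference of the members was 1.13, beside 0.49 for all genes, and leaving out any other single replicate gave 0.57 to 0.92. Within batch 1 it was 1.11 over 7 members, beside 0.64 for all genes, and within batch 2 it was 0.74 over 7 members, beside 0.25.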

How the data were processed

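RNA-seq libraries of retinal explants were compared at 25 mM against 5 mM glucose. The deposited gene and transcript tables hold expected counts (estimated counts, not whole) per library, and the submitters' processing notes name GRCm38. The quantifier, annotation and use of strand are not given in the sources used here. Gene values sum to the same library totals as transcript values but differ gene by gene, so they appear to have been scaled by the authors.

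Technical replicates were summed and rounded. Genes and transcripts passing filterByExpr were fitted in edgeR 4.0.16 (R 4.3.3) with TMM factors and the quasi-likelihood test with no replicate block, Benjamini-Hochberg adjusted over all features tested. Transcript use was tested with diffSpliceDGE. Transcript types, coordinates and sequences came from GENCODE, matching 92.0% of transcripts. Non-coding over coding ratios used a pseudocount of 0.5 and exact permutation tests. TPM came from transcript counts over annotated length. The scripts were tested on simulated data. Alternatives used DESeq2 1.42.0, limma 3.58.1 voom, other factors, filters, batches and offsets.

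Total counts per library limit precision by counting error, which the replicate spread includes. Members and gene lists were chosen with earlier results of these data known. Named were the 9 members, their transcripts with at least 10% of the gene's counts, the highest and lowest gene of each role list, and the 3 genes most correlated with the highest and the lowest member. Sf3b2, Snrpd3, further transcripts and the retained-intron sequences were chosen after their values were seen.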

Additional observations from a re-analysis of the deposited data

How the results depend on the processing

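Across 21 alternative settings of the gene test, 0 members were called in 19. With GC and length offsets 1 was called (Prpf3), in a fit that called 2942 genes in all. Without 5 mM replicate 1, 1 was called (Dhx38), in a fit that called 5845 genes in all. Leaving out 1 replicate thus gave 0 to 1. The median log2 fold change of the members, -0.08, was 0.0229 in batch 2 alone, 0.13 with GC and length offsets and -0.19 from summed transcripts. The number of the 74 other spliceosome genes called, 0, was 1 with DESeq2, 2 with 12 libraries and a batch term, 2 in batch 1 alone, 5 with GC and length offsets (fits that called 3489, 2918, 3279 and 2942 genes in all) and 0 to 17 with 1 replicate left out. The fit of 12 libraries treats technical replicates as independent samples, so its calls can overstate what 3 replicates per group show. Members with changed transcript use numbered 0 to 4 with 1 replicate left out. The cause was not tested for any of these. Directions turned for small differences: Snrnp200 was -0.00504 with no filter beyond 1 count, -0.0501 in batch 1 alone and -0.193 from summed transcripts, and -0.0115 to 0.0398 with 1 replicate left out. Prpf4 was 0.0229 in batch 2 alone, Prpf31 was -0.0430 from summed transcripts and -0.0802 to 0.113 with 1 replicate left out, and Dhx38 was 0.14 with GC and length offsets. The difference in log2 ratio of Prpf8 was 0.00233 with a pseudocount of 5, and with 1 replicate left out it ran from -0.872 to 0.283, and that of Prpf4 from -0.0465 to 0.355.

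With the replicate block, 0 members and 990 genes were called. With the block and GC and length offsets, the median was 0.12, Dhx38 was 0.13 and 5 other spliceosome genes were called. Same-numbered replicates correlated in their deviations from the group mean at -0.01, -0.45 and 0.28, and differently numbered ones at -0.42 to 0.51. With 3 replicates per group these values cannot decide whether equal numbers pair the samples, and the labels do not say. Counts per base of transcript and a fit without the second technical library of 5 mM replicate 1 were chosen after seeing the data, and gave a median log2 ratio of 0.80 and 0 members called.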
